A study of Mus musculus with 20 samples.

Results

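The subunits of the oxidative phosphorylation system that are encoded in the nucleus were followed across fed and fasted livers of mice with and without Plin2. Members were the rows of the deposited TPM table whose gene symbol begins with Nduf and a subunit letter and number, or belongs to the Sdh, Uqcr, Cyc1, Cox4 to Cox8 or Atp5 series, with pseudogene symbols ending in -ps left out. Of 55493 rows, 103 matched and 13 of these were left out, which gave 90 members. Sorted by symbol, they held 40 members of complex I, 4 of complex II, 9 of complex III, 19 of complex IV and 18 of complex V. The rule uses symbols alone and no measured value, though the members were chosen with earlier results of these data known. GENCODE types 4 of the 90 as processed pseudogenes (Ndufa11b, Ndufb4c, Ndufs6b and Cox6c2). They stay among the members, and the 2 that could be tested, Ndufb4c and Ndufs6b, passed no test.

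Oxidative phosphorylation is the last stage of fuel oxidation in mitochondria. Complexes I and II pass electrons from NADH and succinate to ubiquinone, complex III passes them on to cytochrome c, and complex IV hands them to oxygen. Complexes I, III and IV pump protons across the inner membrane, and complex V, the ATP synthase, uses the returning protons to make ATP. Most subunits are encoded in the nucleus and a small set in mitochondrial DNA. In the fasted liver this system takes up the electrons released by fatty acid oxidation.

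Liver RNA came from female mice of the C57BL/6N strain, aged 15 weeks. There were 4 groups of 5 libraries: Plin2+/+ fed on chow, Plin2+/+ fasted for 24 h, and the same feeding states in mice without PLIN2, a protein that coats lipid droplets. For 10 libraries the labelled group states only fed or fasted. Since the study used Plin2+/+ and Plin2-/- mice alone, these were taken as Plin2-/-, written Plin2-null below. No label says in which tissue the allele acts, or assigns libraries to animals, litters or days, so the p-values cover the spread among these samples, which may be technical.

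Total counts ran from 25506471 to 65579038 per library, and 16312 genes passed the filter on low counts. The targeted gene Plin2 lay at 196 to 319 CPM (counts scaled to library size, with the TMM correction for composition) in Plin2+/+ fed livers and 1092 to 1696 in Plin2+/+ fasted livers. In Plin2-null livers Plin2 lay at 15.3 to 32.1 CPM before fasting and 75.1 to 130.4 CPM after it. The hepatocyte markers Alb, Apoa1, Ttr, Serpina1a, Cps1 and Hnf4a summed to 76338 to 151714 CPM per library. In whole tissue, fewer cells of a type and less RNA per cell cannot be told apart.

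Short motifs known from the promoters of respiratory genes were counted first. RefSeq promoter windows of 300 bases around the start (GRCm38.p6) were found for 68 members, in 73 windows, and for 27025 genes in all, in 32851 windows. The palindromic core motif of NRF1, a regulator of respiratory genes, stood in 6.85% of member windows (5 of 73) and 0.971% of all windows. Its shorter form GCATGCGC, which every full core also holds, stood in 13.7% and 2.71%. CCGGAAG, the core of ETS factors such as GABPA, stood in 23.3% and 8.86%, and AAGATGGC, the core of YY1, in 13.7% and 2.75%. TATAAA was found in 12.3% of member and 13.6% of all windows, and CCAAT in 42.5% and 37.4%. Member windows were richer in GC, with a median of 57.3% against 52.7% in all windows, and the motif counts were not adjusted for this. Both strands were searched, and a match is a description of letters, not of a bound site.

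For 5 members with values given further on, 120 bases before the start are shown 5′ to 3′ on the gene's strand, ending just before the RefSeq start, or for Atp5g1 39 bases further upstream, clear of an exon annotated by GENCODE. Capitals mark the motifs named above, on either strand: the NRF1 core in Ndufa11, the ETS core in Sdhd and CCAAT in the other three. Ndufa11 is at chr17:56717642-56717761 on the plus strand. The rest are on the minus strand: Sdhd at chr9:50603850-50603969, Cox6b2 at chr7:4753095-4753214, Atp5g1 at chr11:96075671-96075790 and Atp5g3 at chr2:73911327-73911446.
Ndufa11: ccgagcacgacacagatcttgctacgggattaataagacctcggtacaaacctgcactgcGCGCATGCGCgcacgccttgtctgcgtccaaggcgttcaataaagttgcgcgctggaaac
Sdhd: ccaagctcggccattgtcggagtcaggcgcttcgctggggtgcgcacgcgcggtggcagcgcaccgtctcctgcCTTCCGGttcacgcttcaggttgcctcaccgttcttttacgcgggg
Cox6b2: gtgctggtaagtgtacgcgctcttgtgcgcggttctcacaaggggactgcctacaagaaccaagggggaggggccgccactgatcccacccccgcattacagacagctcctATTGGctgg
Atp5g1: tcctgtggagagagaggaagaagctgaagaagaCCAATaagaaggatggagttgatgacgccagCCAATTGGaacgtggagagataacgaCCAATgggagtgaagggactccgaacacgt
Atp5g3: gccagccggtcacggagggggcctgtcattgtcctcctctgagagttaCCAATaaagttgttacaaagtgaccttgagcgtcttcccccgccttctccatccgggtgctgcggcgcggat

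Nuclear OXPHOS subunits made up close to the same part of the liver mRNA in every group. Their summed TPM (a level per gene length, with 1 total for all libraries) was 9395 ± 247 in Plin2+/+ fed and 9117 ± 998 in Plin2+/+ fasted livers (SD, n = 5 each). It was 9143 ± 755 in Plin2-null fed and 9815 ± 1795 in Plin2-null fasted livers (SD, n = 5 each). These sums are between 0.912% and 0.982% of all TPM, and the libraries of all 4 groups overlapped. Complex I was the largest sum, at 2796 ± 176 TPM in Plin2+/+ fed livers, and complex II the smallest, at 738 ± 22.3 TPM (SD, n = 5 each). The spread was widest in Plin2-null fasted livers, where the sum over all members ran from 7659 TPM in replicate 3 to 12189 TPM in replicate 5.

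**Figure D1:**
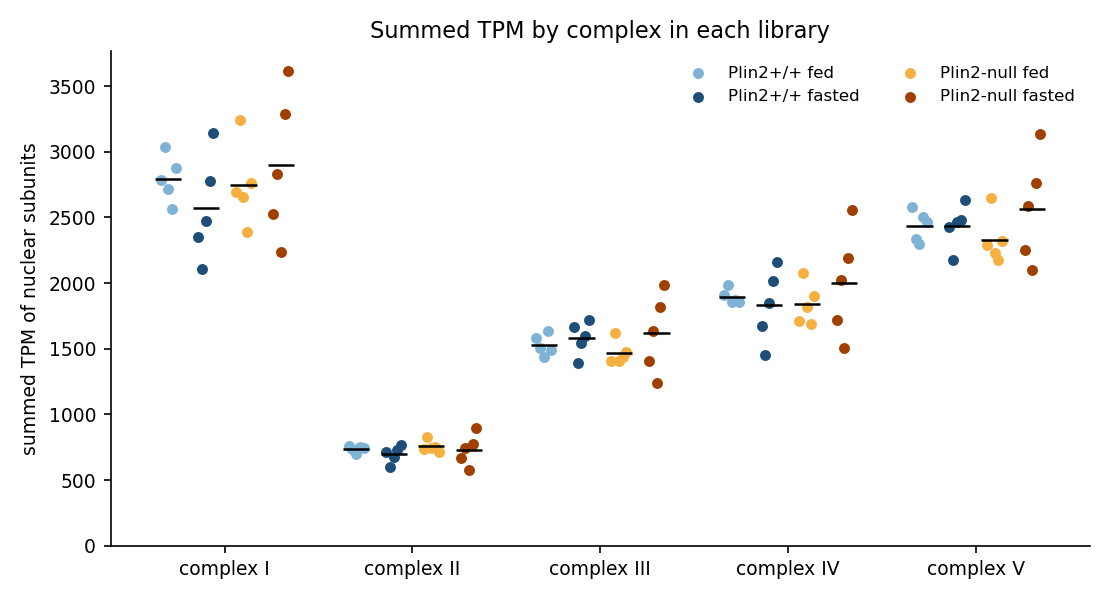
Summed TPM of the nuclear subunits of each complex. Each point is 1 library, coloured by group, and the black line is the group mean of 5 libraries; in every complex the 4 groups overlap.

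Within a complex the members differed widely in TPM although their proteins sit together in fixed proportions. TPM divides counts by the length of all annotated exons of a gene, which can exceed that of its mRNA. This length is 4135 bases for Uqcrc1 and 1237 bases for Uqcrh, so ranks in TPM depend in part on the annotation. Averaged over the 20 libraries, complex I members had a median of 55.2 TPM, with Ndufa4, placed here by its symbol, highest at 324 TPM. Sdhd, a membrane anchor of complex II, had 334 TPM and the iron-sulphur subunit Sdhb 58.7 TPM. In complex III the hinge subunit Uqcrh led with 385 TPM and the core protein Uqcrc1 was lowest with 50.5 TPM. Cox6b1 led complex IV with 480 TPM, and Atp5a1, the alpha subunit of the ATP synthase head, led complex V with 499 TPM.

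Of the 90 members, 82 passed the filter on low counts and 8 did not. The 8 were Ndufa11b, Cox7b2, Cox8c and a second row named Atp5o, listed at 0 throughout, and Cox4i2, Cox6a2, Cox6c2 and Cox8b, which had few counts. The libraries were strand-specific per the labels, but no source used here gives the strand setting of the counting. Exons of 6 members share bases with another gene on the same strand and exons of 27 members with a gene on the opposite strand. Among members named here the latter hold for Ndufa4l2, Ndufa11, Ndufa13, Ndufb5, Ndufs1, Uqcrc2, Cox4i1, Cox6a2, Atp5a1, Atp5d, Atp5l, Atp5o and Atp5pb, whose counts may include reads of that neighbour, and Ndufb8, Atp5g2 and Atp5o share bases on the same strand.

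After 24 h without food, Plin2+/+ livers had more mRNA of a small set of subunits spread over complexes I, III, IV and V and less of 4 others. Of the 82 members tested, 14 rose, 4 fell and 64 did not pass an adjusted p of 0.05 (edgeR's quasi-likelihood test, Benjamini-Hochberg adjusted over all genes). Of all genes tested, 42.6% passed, 20.9% higher and 21.7% lower, so a smaller share of members than of all genes passed. The median log2 fold change was 0.04 over the members and -0.01 over all genes. In 7 of the 14 that rose, every fasted library lay above every fed library, 8.54% of the members tested against 12.9% of all genes.

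In Plin2-null livers 39 of the 82 members rose on fasting and 1 fell, against 36.1% of all genes, 18.0% higher and 18.1% lower. The median log2 fold change of the members was 0.39, against -0.01 over all genes, and 78 of 82 members had a positive value. In 26 of the 39 the fasted and fed libraries did not overlap, 31.7% of the members tested against 12.2% of all genes. Among the genes that rose this part was alike, 66.7% for members and 67.5% for all genes. Rises were called in both genotypes for 13 members, among them Ndufa5, Ndufb5, Ndufs1, Ndufv2, Uqcrc2, Uqcrfs1, Cox6b2, Cox7a2l, Atp5b, Atp5c1, Atp5h and Atp5pb. A further 26 were called in Plin2-null livers without being called in Plin2+/+ livers, and Uqcrh was called in Plin2+/+ livers alone. No member was called in opposite directions.

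Whether the response differed between the genotypes was tested by the interaction, which takes the fed genotype difference from the fasted one. No member and no gene passed, 0.0% of all genes (edgeR's quasi-likelihood test). At an unadjusted p under 0.05 there were 22 of 82 members and 2250 of 16312 genes, and DESeq2 and limma voom called no member either. Over all genes DESeq2 called 0.122% higher and 0.0924% lower, and limma voom 0.00613% in each direction. The median interaction was 0.31 on the log2 scale over the members and 0.02 over all genes, with 75 of 82 members positive. The larger count of rises in Plin2-null livers is therefore not shown to be a difference between the genotypes for any one member.

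The counts depended on how libraries were scaled. With scaling by library size alone the median of all genes moved to -0.16 in Plin2+/+ and -0.21 in Plin2-null livers. Then 5 members rose and 6 fell in Plin2+/+ livers, against 11.4% and 25.6% of all genes, and 13 rose and 2 fell in Plin2-null livers, against 8.44% and 26.0%. Both scalings shift all genes of a library alike, so the place of the members relative to the median of all genes could hardly move. Their median stood 0.05 above it with TMM and 0.04 above it with library size in Plin2+/+ livers. In Plin2-null livers it stood 0.39 and 0.38 above it. Taken from log2(TPM + 1), the members' median minus that of all genes was -0.05 in Plin2+/+ and 0.30 in Plin2-null livers. With log2(TPM + 0.1) it was 0.01 and 0.40. With each library's trend with GC content removed, 25 members rose in Plin2+/+ livers, 30.5% of those tested against 23.6% of all genes, so the share that rose was then above and not below that of all genes. In Plin2-null livers 43 rose with that trend removed, against 20.6% of all genes. On the TPM scale Atp5h and Atp5l, which rose in Plin2-null livers with TMM, had small negative differences.

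**Figure D2:**
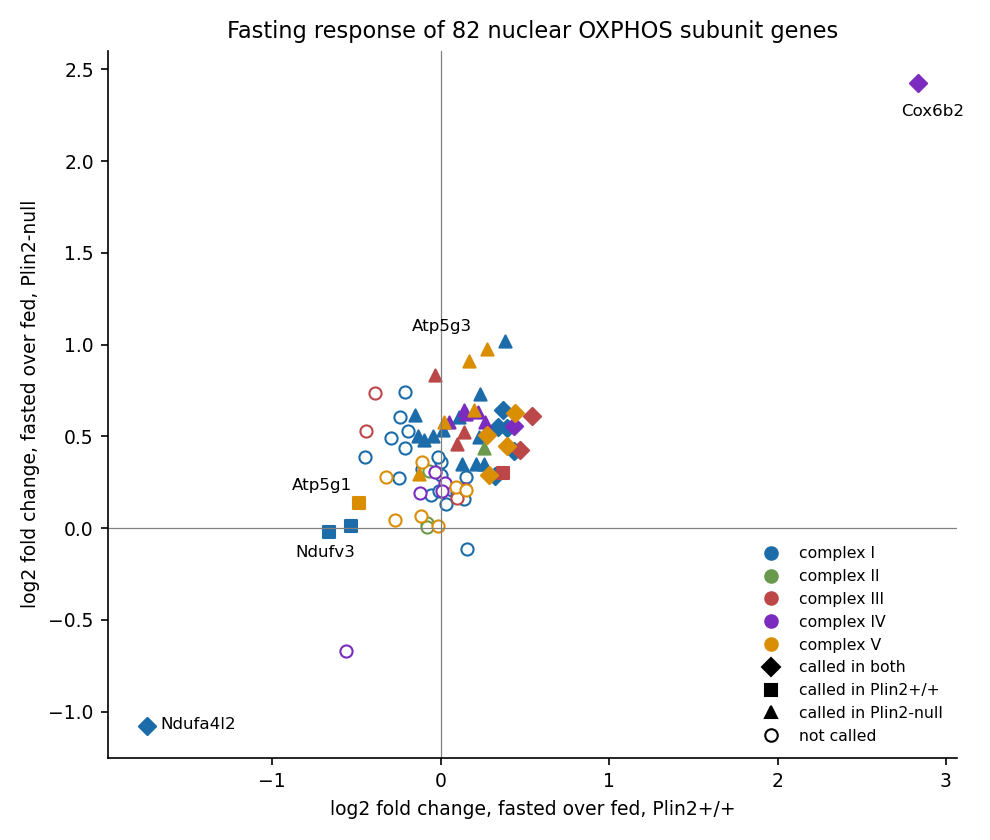
Log2 fold change (fasted over fed) of 82 members in Plin2+/+ (x axis) and Plin2-null livers (y axis), coloured by complex, with the marker showing where the adjusted p was under 0.05. Most points lie above 0 on the y axis and around 0 on the x axis, with Cox6b2 high and Ndufa4l2 low in both genotypes.

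In complex I, 5 of 39 members tested rose and 3 fell in Plin2+/+ livers, and 17 rose and 1 fell in Plin2-null livers. In Plin2+/+ livers these were 12.8% and 7.69%, against 20.9% and 21.7% of all genes. In Plin2-null livers they were 43.6% and 2.56%, against 18.0% and 18.1%. The 1 that fell in both genotypes was Ndufa4l2, placed here by its symbol. Of the 7 nuclear core subunits, those that carry the flavin, iron-sulphur clusters and quinone site, 3 rose in Plin2+/+ livers (Ndufs1 and Ndufv2 among them) and 1 fell (Ndufs8). In Plin2-null livers 6 of the 7 rose. Of the 32 other members tested, 2 rose in Plin2+/+ and 11 in Plin2-null livers.

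Ndufs1, the largest iron-sulphur subunit, was at 118, 96.2, 101, 104 and 100.4 CPM in Plin2+/+ fed livers and at 134, 163, 152, 131 and 124 CPM in fasted ones. The Plin2-null values were 97.7, 104, 90.9, 98.0 and 99.1 CPM fed and 131, 141, 146, 112 and 127 CPM fasted. The fasted libraries lay above the fed ones in both genotypes, with log2 fold changes of 0.44 ± 0.09 (SE, adjusted p = 0.000742) and 0.42 ± 0.09 (SE, adjusted p = 0.00133).

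Ndufv2, which carries an iron-sulphur cluster of the NADH-oxidising arm, was at 43.3, 41.9, 46.7, 44.0 and 38.8 CPM fed and 46.4, 58.2, 59.2, 60.4 and 53.3 CPM fasted in Plin2+/+ livers. Without Plin2 it was at 36.5, 40.9, 35.6, 36.7 and 37.9 CPM fed and 51.6, 62.3, 64.7, 49.8 and 64.2 CPM fasted. The groups overlapped slightly in Plin2+/+ livers and not in Plin2-null livers. The log2 fold changes were 0.37 ± 0.09 (SE, adjusted p = 0.00321) and 0.64 ± 0.09 (SE, adjusted p = 1.66e-05). The accessory subunits Ndufa5 and Ndufb5 rose by 0.39 ± 0.12 and 0.34 ± 0.10 in Plin2+/+ and by 0.55 ± 0.12 and 0.55 ± 0.10 in Plin2-null livers (log2, SE).

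Ndufv3, a small subunit of the same arm, fell in Plin2+/+ livers. It was at 41.3, 52.0, 49.8, 44.1 and 46.0 CPM fed and 20.2, 28.1, 27.4, 38.1 and 33.98 CPM fasted, with no overlap. The log2 fold change was -0.66 ± 0.14 (SE, adjusted p = 0.000757). In Plin2-null livers it was at 41.7, 49.3, 41.6, 28.9 and 41.4 CPM fed and 36.8, 40.8, 42.5, 35.8 and 44.2 CPM fasted, groups that overlapped, with a log2 fold change of -0.02 ± 0.14 (SE, adjusted p = 0.929). The interaction was 0.64 ± 0.20 (log2, SE) with an adjusted p of 0.243.

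Ndufs8, a core subunit with iron-sulphur clusters next to the quinone site, was at 25.3, 40.1, 35.9, 30.7 and 34.9 CPM in Plin2+/+ fed and 13.7, 19.0, 24.2, 30.0 and 28.5 CPM in fasted livers. The lowest values were those of fasted replicates 1 and 2, and the groups overlapped. It fell by 0.53 on the log2 scale (adjusted p = 0.0169), and the call was lost without Plin2+/+ fed replicate 2 (adjusted p = 0.0516). In Plin2-null livers its log2 fold change was 0.01 ± 0.17 (SE, adjusted p = 0.965). The same replicates 1 and 2 had the steepest negative trend of log2 CPM with GC content, -0.36 and -0.33 per 10 percentage points of GC. With each library's trend removed the change of Ndufs8 was -0.40 (adjusted p = 0.0164) and that of Ndufv3 -0.61 (adjusted p = 0.000693).

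**Figure D3:**
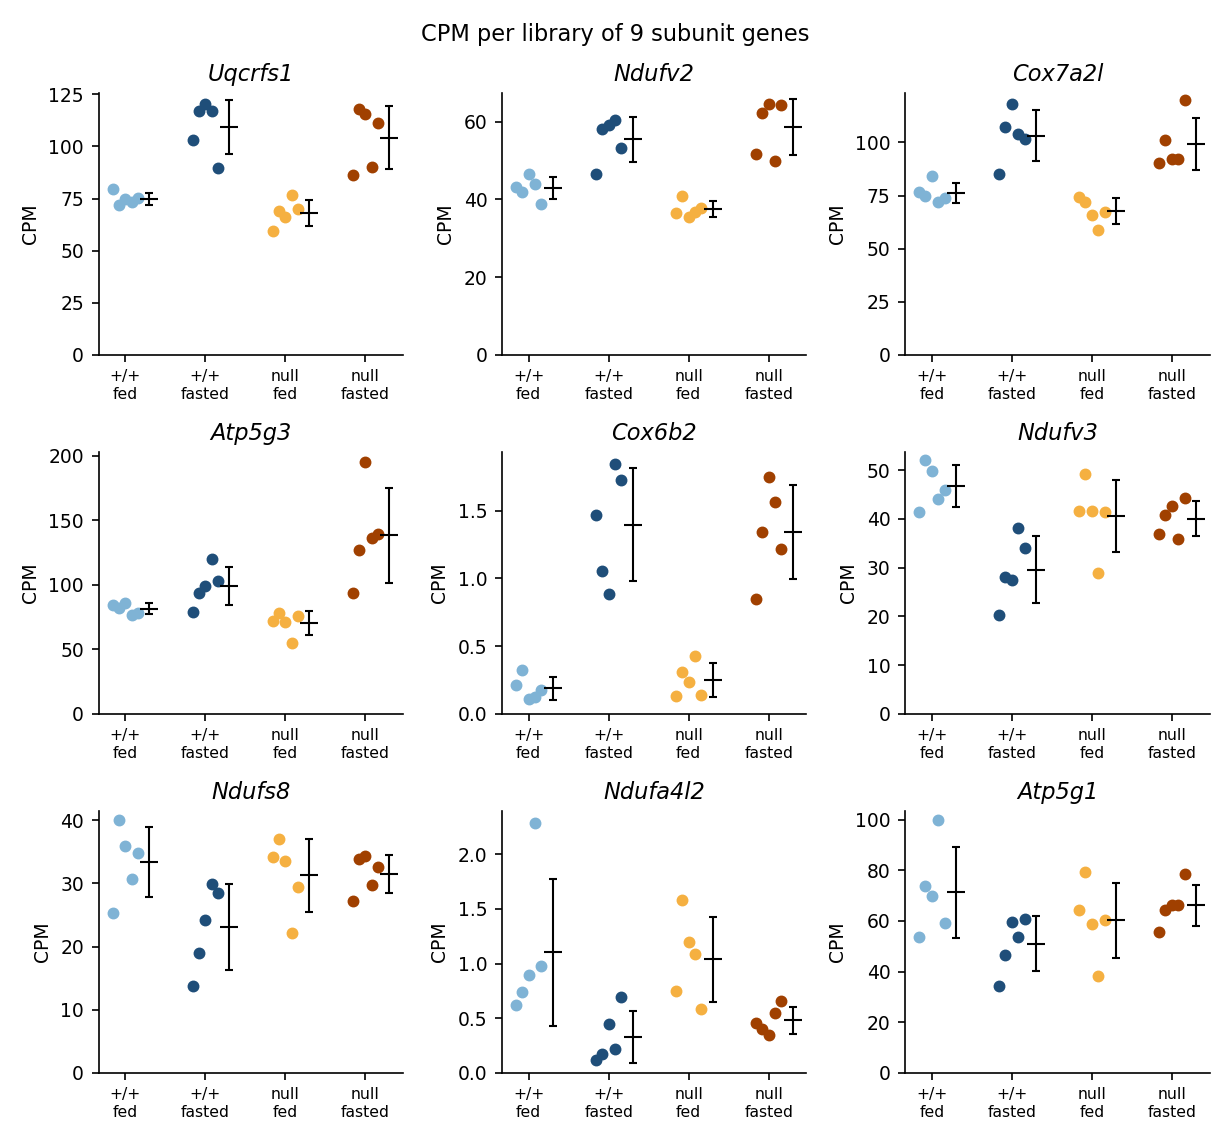
CPM of 9 members in each library by group (+/+ is Plin2+/+, null is Plin2-null), with the mean and SD of 5 libraries to the right of the points. Uqcrfs1, Cox7a2l and Cox6b2 are higher in every fasted library than in every fed library of the same genotype, while Ndufv3 is lower in fasted Plin2+/+ libraries.

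Complex II, which doubles as an enzyme of the tricarboxylic acid cycle, had the fewest calls, and also the fewest members, 4. None of its 4 members passed in Plin2+/+ livers, where 1 had an unadjusted p under 0.05. In Plin2-null livers 1 of the 4 rose, Sdhd (25.0% against 18.0% of all genes). It was at 138, 151, 153, 145 and 134 CPM fed and 162, 207, 206, 177 and 222 CPM fasted, without overlap, a log2 fold change of 0.44 ± 0.11 (SE, adjusted p = 0.0025). In Plin2+/+ livers its log2 fold change of 0.26 ± 0.11 (SE) had an adjusted p of 0.0515, which fell to between 0.027 and 0.0455 when fed replicate 2, fed replicate 3 or fasted replicate 1 was left out.

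In complex III, 3 of 9 members rose in Plin2+/+ livers and 5 in Plin2-null livers, and none fell. The rises were 33.3% and 55.6%, against 20.9% and 18.0% of all genes. Uqcrfs1, the Rieske iron-sulphur protein on the path to cytochrome c, had the smallest adjusted p of the complex in both genotypes. It was at 79.5, 71.8, 74.8, 73.2 and 75.5 CPM in Plin2+/+ fed and 103, 117, 120.2, 117 and 89.5 CPM in fasted livers. The Plin2-null values were 59.6, 69.2, 65.9, 76.5 and 69.9 CPM fed and 86.2, 118, 116, 90.2 and 111 CPM fasted. No fasted library overlapped a fed one of its genotype, and the log2 fold changes were 0.54 ± 0.10 (SE, adjusted p = 0.000232) and 0.61 ± 0.10 (SE, adjusted p = 9e-05).

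Uqcrc2, a core protein of the matrix side, rose by 0.47 ± 0.10 and 0.42 ± 0.10 in Plin2+/+ and Plin2-null livers (log2, SE, adjusted p = 0.000828 and 0.00265), again without overlap. Its partner Uqcrc1 rose in Plin2-null livers by 0.52 ± 0.14 (adjusted p = 0.00686) and had 0.14 ± 0.14 in Plin2+/+ livers (adjusted p = 0.459). Uqcrh was at 168, 182, 184, 188 and 147 CPM in Plin2+/+ fed and 239, 238, 224, 241 and 182 CPM in fasted livers, where replicate 5 reached into the fed range. Its rise of 0.37 ± 0.12 (log2, SE, adjusted p = 0.0161) lost the call without Plin2+/+ fed replicate 5 (adjusted p = 0.0518). In Plin2-null livers it had 0.30 ± 0.12 (adjusted p = 0.0531), and the interaction of -0.07 ± 0.17 had an adjusted p of 0.875.

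In complex IV, 2 of 13 members tested rose in Plin2+/+ livers and 7 in Plin2-null livers, and none fell. The rises were 15.4% and 53.8%, against 20.9% and 18.0% of all genes. The nuclear subunits of this complex surround a catalytic core made from mitochondrial DNA, and several exist as isoform pairs that differ between tissues. Cox7a2l, a relative of Cox7a, was at 76.5, 74.5, 84.4, 71.8 and 73.8 CPM in Plin2+/+ fed and 85.3, 107, 118, 104 and 102 CPM in fasted livers. Without Plin2 it was at 74.4, 71.7, 66.0, 58.6 and 67.1 CPM fed and 90.5, 101, 92.4, 92.4 and 119.97 CPM fasted. All fasted libraries were above the fed ones, with log2 fold changes of 0.44 ± 0.10 (SE, adjusted p = 0.00123) and 0.56 ± 0.10 (SE, adjusted p = 0.00016). With library size alone the rise in Plin2+/+ livers was 0.27 with an adjusted p of 0.0864. Cox5b, a zinc-binding subunit, rose in Plin2-null livers by 0.64 ± 0.12 (adjusted p = 0.000261).

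Cox6b2, known as the testis form of the subunit that faces the intermembrane space, had the largest rise of all members in both genotypes, at a very low level. The gene lies at chr7:4751792-4753094 on the minus strand (GENCODE M21, GRCm38), directly after the promoter stretch shown. It was at 0.211, 0.322, 0.112, 0.125 and 0.177 CPM in Plin2+/+ fed livers and 1.47, 1.05, 0.885, 1.84 and 1.73 CPM in fasted ones, from 5 to 16 and from 30 to 67 counts per library. In Plin2-null livers it was at 0.132, 0.311, 0.235, 0.429 and 0.140 CPM fed and 0.846, 1.34, 1.75, 1.57 and 1.22 CPM fasted, from 6 to 17 and from 28 to 77 counts. All fasted libraries lay above all fed ones, and the log2 fold changes were 2.84 ± 0.34 (SE, adjusted p = 7.81e-07) and 2.43 ± 0.33 (SE, adjusted p = 6.24e-06). On the TPM scale its share of the Cox6b pair was still only 0.66% ± 0.18 in Plin2+/+ fasted and 0.60% ± 0.19 in Plin2-null fasted livers, against 0.09% ± 0.04 and 0.13% ± 0.06 in the fed state (SD, n = 5 each).

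The liver forms of the other isoform sets carried nearly all the TPM, and muscle forms were at or near 0. Cox4i2 held at most 0.24% of the Cox4 pair in any library, the rest being Cox4i1, and Cox7a2 held between 97.6% and 99.6% of the sum of Cox7a2 and Cox7a1. The muscle forms Cox6a2 and Cox8b reached at most 0.22% and 0.39% of their sets in any library. Cox7a1 was between 0.181 and 1.05 CPM, with log2 fold changes on fasting of -0.56 ± 0.30 and -0.67 ± 0.31 (SE, adjusted p = 0.135 and 0.0969). Skeletal and heart muscle markers summed to at most 0.124 CPM in any library over 9 genes.

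Ndufa4l2 is a hypoxia-inducible relative of Ndufa4, whose protein is now counted with complex IV in spite of its name. It lies at chr10:127514967-127517154 on the plus strand, and 2.92% of its exon bases overlap Shmt2 on the other strand. It was at 0.616, 0.744, 0.894, 2.28 and 0.973 CPM in Plin2+/+ fed and 0.113, 0.169, 0.442, 0.214 and 0.697 CPM in fasted livers, 35 to 91 and 5 to 27 counts. The Plin2-null values were 0.745, 1.58, 1.19, 1.09 and 0.584 CPM fed and 0.453, 0.400, 0.350, 0.549 and 0.660 CPM fasted. The groups overlapped in each genotype. It fell by 1.74 on the log2 scale in Plin2+/+ livers (adjusted p = 0.00244) and by 1.08 in Plin2-null livers (adjusted p = 0.045). The second call was lost in 7 of 10 fits that left out 1 library of that genotype, with adjusted p from 0.0619 to 0.123.

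Ndufa4l2 was set beside markers of smooth muscle and stellate cells. Of 7 tested, 5 fell in Plin2+/+ and 3 in Plin2-null livers, against 21.7% and 18.1% of all genes, and none rose. The list summed to 313 to 515 CPM in Plin2+/+ fed, 287 to 421 in Plin2+/+ fasted, 321 to 425 in Plin2-null fed and 296 to 409 in Plin2-null fasted livers. Acta2, which defines smooth muscle, lay between 1.41 and 7.02 CPM in Plin2+/+ fed and between 0.470 and 2.92 CPM in Plin2+/+ fasted livers. No marker of the list was at 0 in all libraries. The part of these cells in the fall of Ndufa4l2 was not tested.

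Markers of other cell types moved with fasting too. Of all genes, 20.9% were higher and 21.7% lower in Plin2+/+ livers, and 18.0% and 18.1% in Plin2-null livers. Of 8 Kupffer cell and macrophage markers 6 fell in Plin2+/+ and 4 in Plin2-null livers, of 8 lymphocyte markers 4 and 1, of 5 cholangiocyte markers 3 and 1, and of 5 tested erythroid markers 1 and 1, while none of these rose. Of 6 endothelial markers 2 rose and 3 fell in Plin2+/+ livers, and 2 rose and 1 fell in Plin2-null livers. Of the hepatocyte markers 3 rose and 2 fell in Plin2+/+ livers, and 1 rose and 2 fell in Plin2-null livers. Plin4 and Fabp4, the 2 adipocyte markers tested of 7, rose in both genotypes. The other adipocyte markers stayed near 0: Adipoq, Plin1, Cidea and Ucp1 reached at most 0.103, 0.129, 0.0885 and 0.0286 CPM in any library. Lep was at 0 in all libraries. The part of these cell types in the changes of the members was not tested.

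In complex V, 4 of 17 members tested rose and 1 fell in Plin2+/+ livers, and 9 rose in Plin2-null livers. The rises were 23.5% and 52.9%, against 20.9% and 18.0% of all genes. In the head and central stalk, where ATP is made, Atp5b and Atp5c1 rose in both genotypes, and Atp5a1 and Atp5d in Plin2-null livers. In the peripheral stalk, which holds the head still, Atp5pb and Atp5h rose in both genotypes and Atp5o in Plin2-null livers.

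Atp5pb, the b subunit of the peripheral stalk, was at 143, 124, 139, 139.5 and 121 CPM in Plin2+/+ fed and 145, 206, 196, 183 and 173 CPM in fasted livers. Without Plin2 it was at 127, 125, 118, 112 and 129 CPM fed and 159.7, 198, 232, 171 and 182 CPM fasted. Fed and fasted libraries did not overlap in either genotype, and the log2 fold changes were 0.44 ± 0.11 (SE, adjusted p = 0.00224) and 0.63 ± 0.11 (SE, adjusted p = 9.57e-05). Atp5b, the catalytic beta subunit, rose by 0.39 ± 0.11 and 0.45 ± 0.11 (log2, SE, adjusted p = 0.0084 and 0.00387). Atp5a1 rose in Plin2-null livers by 0.64 ± 0.13 (adjusted p = 0.000459) and had 0.20 ± 0.13 in Plin2+/+ livers (adjusted p = 0.216). Atp5h, another stalk subunit, had 0.29 ± 0.10 and 0.29 ± 0.10 (adjusted p = 0.0302 and 0.0334), calls that were lost in 4 fits without 1 library of the Plin2+/+ and 6 without 1 of the Plin2-null groups.

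The c subunit forms the rotating ring of the ATP synthase and is encoded by Atp5g1, Atp5g2 and Atp5g3, whose mature proteins are the same, so reads can be hard to divide between them and no source used here says how such reads were treated. Atp5g3 (chr2:73908447-73911326, minus strand) was at 84.6, 82.3, 86.0, 76.7 and 78.4 CPM in Plin2+/+ fed and 79.0, 93.8, 98.8, 119.9 and 103 CPM in fasted livers. In Plin2-null livers it was at 72.3, 78.0, 70.8, 55.1 and 75.6 CPM fed and 94.0, 127, 196, 136 and 139 CPM fasted. The groups overlapped in Plin2+/+ livers and not in Plin2-null livers. The log2 fold change was 0.98 ± 0.15 in Plin2-null livers (SE, adjusted p = 1.83e-05) and 0.28 ± 0.14 in Plin2+/+ livers (SE, adjusted p = 0.127). The interaction of 0.70 ± 0.20 had an adjusted p of 0.239.

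Atp5g1 (chr11:96068852-96075670, minus strand) was at 53.5, 73.9, 70.0, 99.9 and 59.1 CPM in Plin2+/+ fed and 34.4, 46.7, 59.4, 53.6 and 60.8 CPM in fasted livers, with overlap. It fell by 0.48 on the log2 scale (adjusted p = 0.037), a call lost without any 1 of 5 libraries, fed replicates 2, 3 and 4 and fasted replicates 1 and 2 (adjusted p from 0.0552 to 0.135). In Plin2-null livers it had 0.14 ± 0.18 (SE, adjusted p = 0.589). Atp5g2 had -0.11 ± 0.16 and 0.36 ± 0.16 (SE, adjusted p = 0.621 and 0.093).

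The shares of the 3 genes in the c subunit TPM do not depend on how libraries are scaled. They do depend on the exon lengths that counts are divided by, 4912 bases for Atp5g1, 1675 for Atp5g2 and 2181 for Atp5g3. The sizes of the shares are therefore less certain than their order between fed and fasted libraries. On the TPM scale Atp5g3 held 51.9% ± 3.73 in Plin2+/+ fed and 61.1% ± 3.69 in fasted livers, and 52.8% ± 2.82 and 63.8% ± 4.19 in Plin2-null livers (SD, n = 5 each). Atp5g1 held 20.0% ± 4.74 and 13.9% ± 1.31 in Plin2+/+ and 19.7% ± 1.81 and 13.9% ± 2.07 in Plin2-null livers (SD, n = 5 each). The share of Atp5g1 was lower in every fasted library (10.7% to 16.1%) than in every fed library (16.3% to 28.0%). The share of Atp5g3 did not overlap in Plin2-null livers and overlapped in Plin2+/+ livers, where fed replicate 1 had 58.1%. These shares were described without a test.

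**Figure D4:**
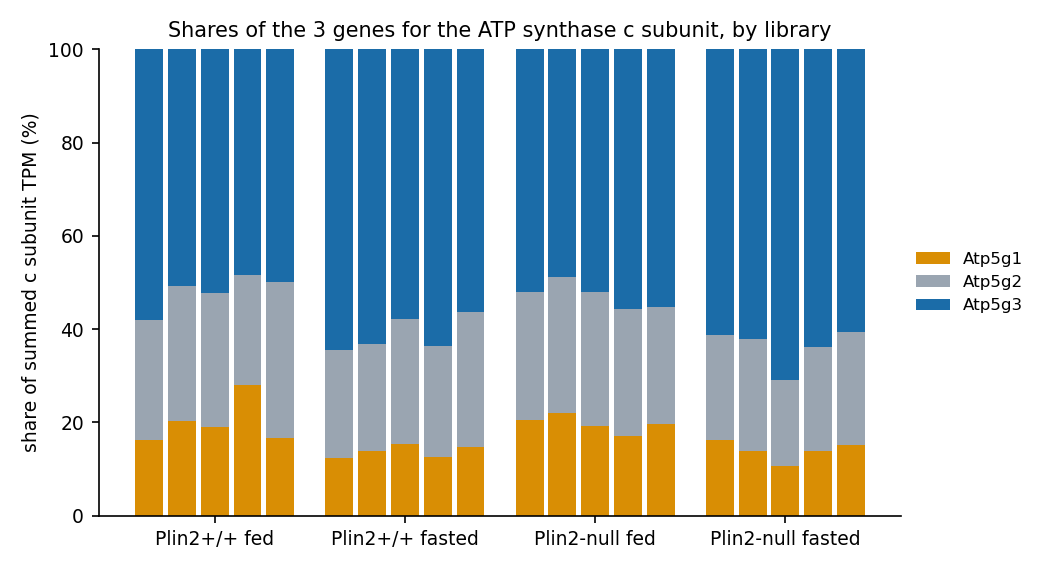
Share of summed TPM (percent, y axis) held by Atp5g1, Atp5g2 and Atp5g3 in each of 20 libraries, 5 bars per group. The Atp5g1 share is smaller in fasted than in fed bars of both genotypes.

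The genotypes were compared next within each feeding state. In fed livers no member passed, against 0.0184% of all genes, 0.0123% higher and 0.00613% lower in Plin2-null livers. DESeq2 and limma voom also called none, and 1 member had an unadjusted p under 0.05. Of the 82 members, 75 had a negative value, with a median of -0.14 on the log2 scale, against 0.00 over all genes. Members share libraries and are not replicates, so counts of signs, here and in the other comparisons, are a description. The median deviation of members from their own mean (log2 CPM) ran from -0.37 to -0.04 over Plin2-null fed libraries. Over Plin2+/+ fed libraries it ran from -0.14 to 0.04. For Ndufv2 the fed means were 37.5 ± 2.05 CPM in Plin2-null and 42.9 ± 2.87 CPM in Plin2+/+ livers (SD, n = 5 each). The fed libraries of each genotype enter both this comparison and the fasting comparison of that genotype, so the values are not independent.

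In fasted livers no member passed either, while 3.24% of all genes did, 1.51% higher and 1.73% lower in Plin2-null livers. At an unadjusted p under 0.05 there were 26 of 82 members, and 61 of 82 had a positive value, with a median of 0.21 against 0.02 over all genes. Without Plin2+/+ fasted replicate 1 the 26 became 10 and the median 0.12, and without replicate 2 they became 9 and 0.17. DESeq2 called 3 members (Atp5g3, Ndufb8 and Ndufc2) and limma voom 1 (Ndufc2), or 3.49% and 1.22% of the members tested, against 4.69% and 3.54% of all genes (30305 with a p in DESeq2 and 16312 in limma voom), with 2.04% and 1.79% higher. The nearest to the threshold were Ndufc2 at 0.62 ± 0.18 (log2, SE, adjusted p = 0.0593), Atp5g3 at 0.49 ± 0.14 (adjusted p = 0.0596) and Ndufb8 at 0.51 ± 0.16 (adjusted p = 0.0713). The small complex III subunit Uqcrq, chosen after its values were seen, had the largest difference, 1.08 ± 0.41 (adjusted p = 0.12). It was at 9.27, 14.1, 24.4, 39.6 and 51.8 CPM in Plin2+/+ fasted and 41.8, 44.1, 80.375, 72.9 and 55.2 CPM in Plin2-null fasted livers, which overlapped.

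The count of calls in fasted livers moved with single libraries. Without Plin2+/+ fasted replicate 5, 14 members were called higher in Plin2-null fasted livers, from 0.49 to 1.44 on the log2 scale: Ndufa7, Ndufa8, Ndufa11, Ndufa13, Ndufb7, Ndufb8, Ndufb10, Ndufc2, Ndufs7, Ndufv3, Uqcr11, Uqcrq, Atp5d and Atp5g3. These were 16.9% of the members tested, while 10.8% of all genes were called, 6.21% higher. Ndufa11, an accessory subunit of complex I with the NRF1 core in its promoter stretch, was at 8.00, 10.7, 17.1, 19.0 and 23.2 CPM in Plin2+/+ fasted and 17.1, 24.2, 22.5, 22.3 and 28.5 CPM in Plin2-null fasted livers. These groups overlapped, and with all libraries its log2 fold change was 0.56 ± 0.24 (SE, adjusted p = 0.16). Without Plin2+/+ fasted replicate 4, 3 members were called (5.78% of all genes). Ndufc2 alone was called without Plin2-null fed replicate 4 (3.56% of all genes) and Atp5g3 alone without Plin2-null fasted replicate 1 (1.26%). In the other fits without 1 library no member was called. Plin2+/+ fasted replicate 5 had a GC trend of 0.19 per 10 percentage points, while replicates 1 and 2 of its group had the most negative ones.

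The genotype difference in fasted livers varied with the GC content of the transcripts. Across the 82 members Pearson's r between log2 fold change and GC content was 0.38, and across 16288 genes it was 0.35. These values are across genes, which are not independent and share the same 10 libraries, so no p is given. The GC trend of the libraries ran from -0.36 to 0.19 in Plin2+/+ fasted and from 0.00 to 0.27 in Plin2-null fasted livers. With each library's trend removed, the median of the members was 0.14 and no member was called. The part of this trend in the genotype difference was not tested further.

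**Figure D5:**
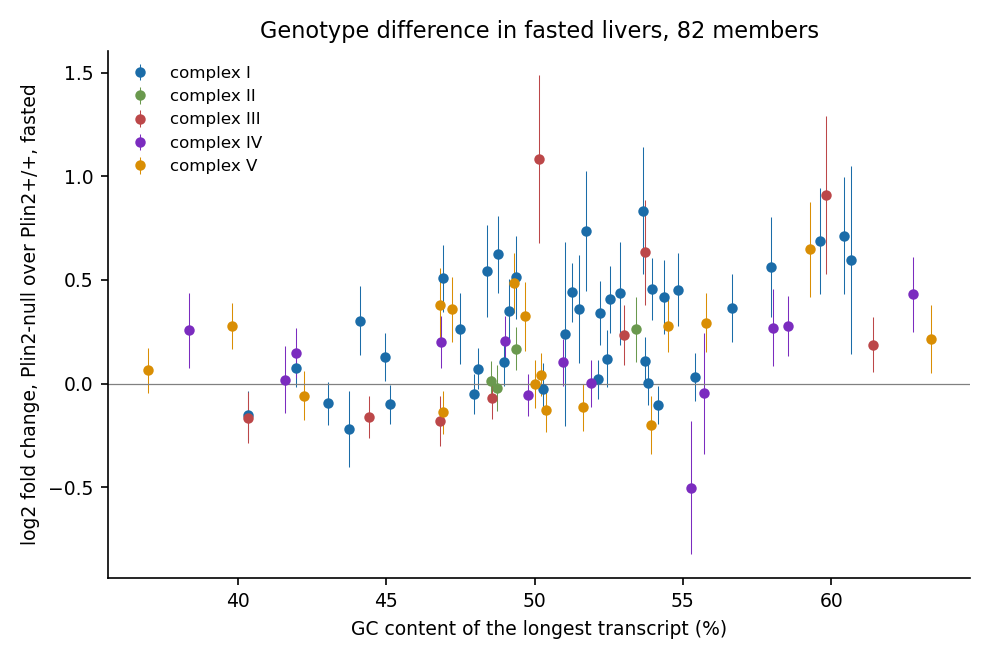
Log2 fold change of Plin2-null over Plin2+/+ fasted livers (y axis, bars are SE) of 82 members against the GC content of the longest transcript (x axis, percent), coloured by complex. Points tend to lie higher towards the right of the plot (r = 0.38 over 82 members).

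Genes that work with the subunits were described from lists by their role, each to be read against the 20.9% higher and 21.7% lower of all genes in Plin2+/+ and the 18.0% and 18.1% in Plin2-null livers. In the tricarboxylic acid cycle, which feeds complexes I and II, 11 of 15 genes rose on fasting in Plin2+/+ and 12 in Plin2-null livers, and none fell. Fh1, fumarase, rose by 1.66 ± 0.21 and 1.26 ± 0.20 (log2, SE, Plin2+/+ and Plin2-null). Of 17 electron carriers and ubiquinone synthesis genes, 8 rose and 3 fell in Plin2+/+ livers, and 11 rose and 1 fell in Plin2-null livers. Cycs, cytochrome c, rose by 1.05 ± 0.12 and 1.10 ± 0.12, and Etfdh, which passes electrons from fatty acid oxidation to ubiquinone, by 1.19 ± 0.12 and 1.33 ± 0.12. Coq8a, a kinase-like protein of ubiquinone synthesis, fell by 1.64 and 1.19 on the log2 scale.

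Of 47 assembly factors tested, 12 rose and 3 fell in each genotype, and the 25.5% that rose was near the share of all genes. Coa6, a copper-handling factor of complex IV, rose by 1.38 ± 0.22 in both (log2, SE), and Acad9, which helps to build complex I, fell by 0.40 and 0.52. Of the 13 subunits encoded in mitochondrial DNA, 4 rose and none fell in Plin2+/+ livers, and 3 rose and 1 fell in Plin2-null livers. The complex I genes mt-Nd1, mt-Nd2 and mt-Nd5 rose in both. Among 9 tested genes for ATP synthase regulation, carriers and supercomplexes, 3 rose and 2 fell in Plin2+/+ livers, and 4 rose and 1 fell in Plin2-null livers. Atpif1, the inhibitor of ATP hydrolysis by the synthase, fell by 1.2 and 0.80 on the log2 scale, and Slc25a3, the phosphate carrier, rose by 0.58 ± 0.11 and 0.65 ± 0.11.

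Regulators of mitochondrial biogenesis rose in 12 of 17 cases in Plin2+/+ and 9 of 17 in Plin2-null livers, and none fell. Ppargc1a, a coactivator of respiratory genes, rose by 2.58 ± 0.40 in Plin2+/+ and by 1.19 ± 0.38 in Plin2-null livers (log2, SE). In fasted livers 2 of the 17 were lower in Plin2-null mice: Ppargc1a, with a log2 difference of -1.52 ± 0.38 (SE, adjusted p = 0.0415), and Yy1, with -0.36 ± 0.09 (SE, adjusted p = 0.0339). Of all genes, 1.51% were higher and 1.73% lower in that comparison. Nrf1 and Gabpa rose in Plin2+/+ livers by 0.44 ± 0.11 and 0.42 ± 0.10.

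Members with and without a promoter motif were set side by side, as a description. Of 66 tested members with a promoter window, 10 held the NRF1 form GCATGCGC, and 5 of these rose in Plin2-null livers, against 28 of the 56 without it. With CCGGAAG 6 of 17 rose, against 27 of 49 without it. In Plin2+/+ livers none of the 10 with GCATGCGC rose, against 11 of 56. With AAGATGGC 4 of 10 rose in Plin2-null livers, against 29 of 56. Medians of the log2 fold change in Plin2-null livers were 0.37 with and 0.44 without GCATGCGC, and 0.30 with and 0.48 without CCGGAAG.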

How the data were processed

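Mouse liver RNA was made into 20 strand-specific libraries (labels' protocols). The authors deposited raw counts per Ensembl gene and TPM values. HISAT2 1.2.1 and featureCounts 1.4.6-p1 are listed in the submitters' processing notes, which name the human build GRCh38 for these mouse genes; no source used here gives the build, annotation or strand setting used. The deposited TPM values matched the counts per gene length: over 7109 genes the relative SD of count over TPM was at most 2.39e-09.

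All counts were fitted together in R with edgeR 4.0.16 (filterByExpr, TMM, robust glmQLFit, 1 coefficient per group over 20 libraries, glmQLFTest, Benjamini-Hochberg over 16312 genes, threshold 0.05). The fit was tested on simulated counts. Standard errors are the log2 fold change divided by the root of F. GENCODE M21 (GRCm38) gave symbols, positions and GC content, and promoters from RefSeq (GRCm38.p6). Alternatives were DESeq2 1.42.0, limma voom (3.58.1), RLE factors, library size alone, no filter, a CPM of at least 1 in 10 libraries, limma on log2(TPM + 1) and log2(TPM + 0.1), the compared groups alone, removal of each library's GC or length trend, and leaving out each library in turn. Totals of 25506471 to 65579038 counts and 5 libraries per group limit the precision.

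The members, gene lists and tests were chosen with earlier results of these data known. Members are named where they had 1 of the 3 smallest adjusted p in their complex, direction and comparison, belong to an isoform set, have the highest or lowest TPM of a complex, or lie next to the threshold; some genes that this rule names are not reported here. Members were also grouped by role and promoter motif. Figures were drawn with matplotlib 3.10.9.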

Additional observations from a re-analysis of the deposited data

Results flagged for a closer look

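In groups of 5 libraries, a value was singled out where its gap to the next library was over 0.71 of the range of the group (Dixon's rule at 95%). Gaps and ranges were taken on the log scale, while the values below are in CPM. Of 104 groups looked at, 3 held such a library, while chance gives about 1 in 20. Atp5b in Plin2-null fed replicate 2 was the highest of its group at 616.7 CPM, with the next at 577 CPM. Atp5g3 in Plin2-null fed replicate 4 was the lowest at 55.1 CPM, with the next at 70.8 CPM. Uqcrh in Plin2+/+ fasted replicate 5 was the lowest at 182 CPM, with the next at 224 CPM.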

How the results depend on the processing

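No paired analysis was possible because the titles number each library separately, with nothing that pairs 2 of them, and replicate numbers follow accession order. The number of members that rose on fasting in Plin2+/+ livers was 14 with TMM, 5 with library size alone, 3 with log2(TPM + 1), 3 with log2(TPM + 0.1), 25 with the GC trend removed and 12 to 16 when 1 library was left out. Those that fell numbered 2 to 6 when 1 library was left out, with 2 without Plin2+/+ fed replicate 2. In Plin2-null livers 39 rose with TMM, 13 with library size alone, 7 with log2(TPM + 1), 7 with log2(TPM + 0.1) and 30 to 46 when 1 library was left out. The 1 that fell became 0 with limma voom, 0 with the stricter filter, 2 with library size alone, 2 with either TPM setting and 0 to 1 when 1 library was left out. For genotype in fasted livers, members called higher numbered 3 with DESeq2, 1 with limma voom, 2 with the stricter filter and 0 to 14 when 1 library was left out. The summed TPM of complex II changed by -0.08 on fasting in Plin2+/+ livers (log2) and by -0.24 without its highest member. Atp5h in Plin2-null livers turned to -0.013 with both TPM settings. The causes were not tested. No member was called for genotype in fed livers or the interaction under any of these settings. Of 46 values of named members, 33 were called with TMM, and of these 14 lost their call with library size alone and 20 with each TPM setting.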
